A study of Mus musculus with 12 samples.

Results

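Glutamate and GABA carry most fast excitation and inhibition in the hippocampus, and the genes described here encode their receptor subunits. The set held 32 named genes, and a gene was represented by a probe set annotated to it and to no other gene, the one with the highest mean over all arrays where there were several. Such a probe set was found for 31 of the 32 genes, out of 23521 probe sets with a single gene symbol and 41345 in all. Grin1, the obligatory NMDA receptor subunit, had no probe set of its own in the annotation and was not analysed here. The 31 genes comprised 4 AMPA, 5 NMDA, 5 kainate and 6 metabotropic glutamate receptor genes, 9 GABA-A subunit genes and both GABA-B subunit genes.

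RNA was measured in the hippocampus of aged Tg2576 mice on 12 Affymetrix Mouse Gene 2.0 ST arrays, 3 biological replicates in each of 4 groups. Every animal, controls included, carried the human amyloid precursor protein transgene with the Swedish mutation under a hamster prion promoter, and was a female of 16 to 18 months. The methods give the line as Tg2576 on a C57BL/6/SJL background, whereas the strain label reads B6.Cg-Tg(APPswe)E1-2Dbo/J, and no non-transgenic hippocampus was analysed here. Treatment lasted 4 weeks, memory tests were run during it, and tissue was taken 24 hours after it ended. The vehicle group received saline by its label, and saline with 10% DMSO and 10% Tween-20 by the methods. One treated group received CM-414, an inhibitor of histone deacetylases (HDACs) and of phosphodiesterase 5. Another received CM-695, an inhibitor of HDAC6 and phosphodiesterase 9, at 40 mg/kg, injected intraperitoneally 6 times a week. The remaining group received SAHA (vorinostat, an HDAC inhibitor) together with tadalafil, a phosphodiesterase 5 inhibitor. The doses of CM-414 and of SAHA with tadalafil are not given in the sources used here.

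AMPA, NMDA and kainate receptors are cation channels opened by glutamate, and GABA-A receptors are chloride channels opened by GABA. Metabotropic glutamate and GABA-B receptors act more slowly, through G proteins. The subunits that a neuron assembles set the speed, the ion selectivity and the drug sensitivity of its receptors, so the RNA of each subunit was followed across the treatments.

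Array values were log2 intensities, on which a difference of 1 is a doubling of signal. All 31 genes exceeded the log2 minimum of 4 on every array, with values from 6.45 (Grm8) to 12.30 (Gria2). Levels of different genes come from different probes and were not compared with each other. In tissue RNA, fewer cells of a type and less RNA per cell cannot be told apart. Differences between groups were tested with limma across all probe sets over the minimum, and a gene was called at an unadjusted p under 0.01, the threshold of the study's methods. Benjamini-Hochberg adjusted p-values over all probe sets tested are given beside it. Each treated group was compared with the same 3 vehicle arrays, so the comparisons are not independent of each other. The arrays correlated with each other at 0.978 to 0.991. Of the probe sets with a single symbol, all of the hippocampal neuron markers listed exceeded the minimum on every array. These were 7 for CA1, 10 for CA3 and 12 for dentate granule cells. All markers listed for choroid plexus (9), striatum (9) and thalamus and habenula (18) did so too, so this minimum does not tell tissues apart.

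Across the 31 genes, calls between treated and vehicle hippocampus were few. A single gene was called in a single comparison: Gabra3 rose with CM-414. No receptor gene was called with CM-695 or with SAHA and tadalafil, and none had an adjusted p under 0.05 in any comparison. A moderated F test over the 4 groups called 0 of 31, against 1.62% of all 34785 probe sets tested. The smallest adjusted p among the receptor genes in that test was 0.657 (limma), shared by Gabrg1 and Gabra3. No probe set at all passed the adjusted threshold with CM-414 or CM-695, and 1 did with SAHA and tadalafil (0.00284% of those tested). At an unadjusted p under 0.05 the counts were 3 receptor genes with CM-414 (Gabra3, Gria3 and Grm7), 2 with CM-695 (Gabrg1 and Grin2d) and 0 with SAHA and tadalafil, beside 9.35%, 5.09% and 5.23% of all probe sets. The CM-695 comparison was fitted on its 6 arrays and the others on all 12, and Grin2d depended on that choice: on 12 arrays it no longer passed 0.05 with CM-695, and on 6 arrays it passed 0.05 with CM-414.

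**Figure D1:**
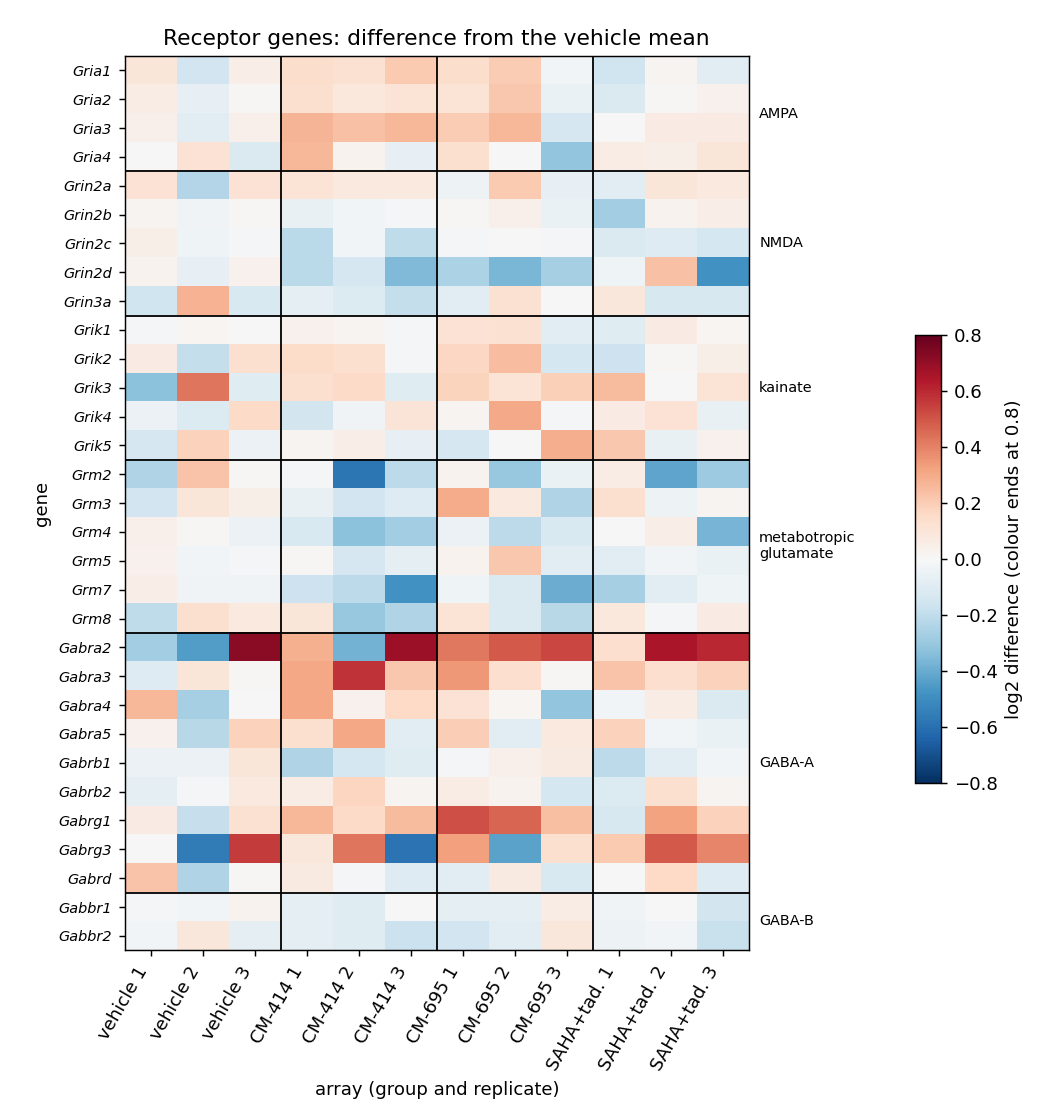
Each row is a receptor gene and each column an array, and colour gives the log2 intensity minus the mean of the 3 vehicle arrays (scale from -0.8 to 0.8). Most cells are pale; Gabra2 and Gabrg3 stand out because their arrays differ within groups, vehicle included.

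Gabra3 encodes the alpha3 subunit of the GABA-A receptor. Its log2 intensity was 9.23, 9.43 and 9.34 in the vehicle replicates and 9.64, 9.91 and 9.55 with CM-414. Every CM-414 array lay above every vehicle array. The difference was 0.37 (SE 0.113, 95% interval 0.12 to 0.62, n = 3 per group), a fold of 1.29, past the unadjusted threshold of 0.01 but with an adjusted p of 0.404 (limma). This was 1 of 31 receptor genes, beside 2.45% of all probe sets tested in this comparison. With SAHA and tadalafil, Gabra3 read 9.56, 9.47 and 9.52, again above all vehicle arrays, but the difference of 0.18 had an adjusted p of 0.979 (limma). The CM-695 arrays, at 9.68, 9.47 and 9.34, overlapped the vehicle arrays. The difference no longer passed 0.01 when vehicle replicate 1 (0.32), vehicle replicate 3 (0.37), CM-414 replicate 1 (0.40) or CM-414 replicate 2 (0.26) was left out. It also missed 0.01 in the fit on 6 arrays, with replicate number as a block, after repeated quantile normalisation and without the 2 arrays highest in thalamus markers, and passed in 10 of 18 alternative analyses in all.

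Gabrg1 encodes the gamma1 subunit, a rarer partner of the GABA-A complex than gamma2. It read 7.81, 7.56 and 7.87 in the vehicle replicates and 8.26, 8.21 and 7.99 with CM-695. All CM-695 arrays lay above all vehicle arrays. The difference was 0.41 (SE 0.126, 95% interval 0.11 to 0.70), a fold of 1.32, between the unadjusted thresholds of 0.01 and 0.05 and with an adjusted p of 0.888 (limma), so the gene was not called. It passed 0.01 in the fit on all 12 arrays, and in 5 of 18 alternative analyses in all. With CM-414, Gabrg1 read 8.01, 7.90 and 8.0, also above the vehicle arrays, by 0.22 (SE 0.128, adjusted p = 0.626, limma). With SAHA and tadalafil it read 7.62, 8.07 and 7.93, which overlapped the vehicle values.

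The start regions of Gabra3 and Gabrg1, the GABA-A genes at the head of these comparisons, and of Grm7, described below, are shown because the treatments include inhibitors of chromatin enzymes and because these regions differ in CpG content. Each is the 250 bases before a transcription start in RefSeq (GRCm38.p6), written 5′ to 3′ along the gene: Gabra3 at chrX:72656808-72657057 on the minus strand, Gabrg1 at chr5:70842618-70842867 on the minus strand, and Grm7 at chr6:110645348-110645597 on the plus strand. Capitals mark CpG pairs, and in Gabra3, which has none, the letters TATAAA read on the opposite strand.
Gabra3: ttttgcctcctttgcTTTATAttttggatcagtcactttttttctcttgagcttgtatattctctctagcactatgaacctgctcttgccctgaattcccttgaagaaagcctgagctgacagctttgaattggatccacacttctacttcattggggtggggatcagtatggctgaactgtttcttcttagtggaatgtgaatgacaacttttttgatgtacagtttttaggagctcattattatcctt
Gabrg1: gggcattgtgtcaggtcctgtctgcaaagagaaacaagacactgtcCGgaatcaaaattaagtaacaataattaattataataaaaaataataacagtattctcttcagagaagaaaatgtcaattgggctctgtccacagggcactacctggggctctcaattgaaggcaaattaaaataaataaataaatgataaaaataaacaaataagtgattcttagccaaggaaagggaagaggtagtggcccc
Grm7: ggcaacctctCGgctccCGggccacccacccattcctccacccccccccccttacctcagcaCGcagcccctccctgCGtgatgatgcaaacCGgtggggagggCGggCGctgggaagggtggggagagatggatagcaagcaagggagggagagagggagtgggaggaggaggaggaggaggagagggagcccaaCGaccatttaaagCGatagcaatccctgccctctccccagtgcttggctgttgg

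A RefSeq start region of 300 bases (250 before to 50 after the start) was matched by symbol for 22 of the 31 receptor genes, with 29 starts. The median CpG count was 13 over these 29 regions and 7 over all 32851 in the table. Both Gabra3 starts held 0 CpG, a count found in 5.43% of all regions. Gabrg1 held 3, of which 1 lies in the stretch shown, and the start of Grm7 shown above held 15, of which 9 lie in that stretch. The motif GGGCGG, the letters of the GC box, was present on either strand in 14 of 22 genes and in 35.7% of all regions. TATAAA was present in Gabra3 and Gabrb2 only among the 22, and in 13.6% of all regions. TGACG, the core of the cyclic AMP response element, was present in Gabrb2, Grik2 and Grm8, that is 3 of 22, and in 20.8% of all regions. The full palindrome TGACGTCA, which contains TGACG, was in 0 of 22 and in 1.79% of all regions. A gene was counted where any of its starts matched, whereas the shares are per region. Genes with several starts thus had more chances to match, and the counts and shares are not like for like. These are matches of letters, and binding was not measured.

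**Figure D2:**
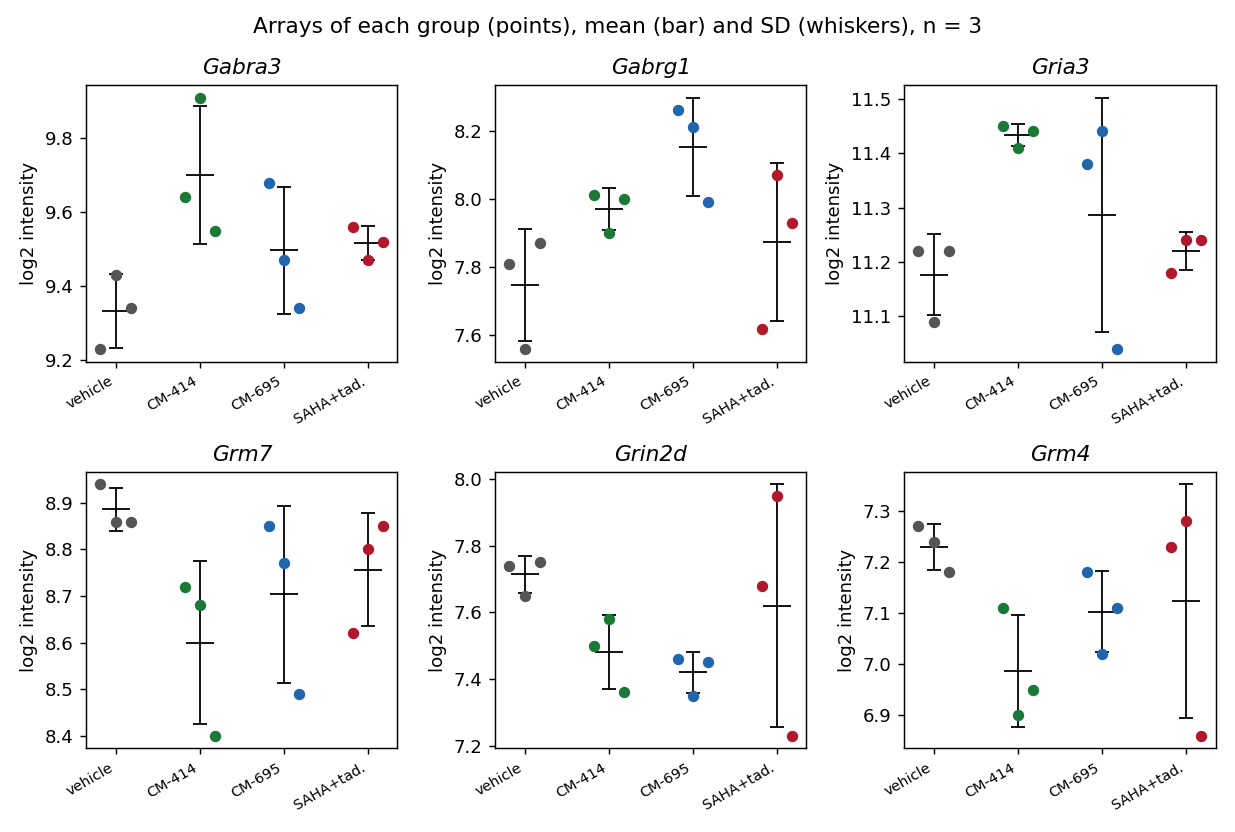
Points are the 3 arrays of each group, the bar is their mean and the whiskers 1 SD, in log2 intensity, for 6 receptor genes whose treated arrays did not overlap the vehicle arrays in at least 1 comparison. Gabra3 with CM-414 is the only called difference; Grm7 is highest in vehicle against every treated array.

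The AMPA receptor genes encode the channels that carry most fast excitation. All 4 had positive differences with CM-414, with a median of 0.13, and none was called. Gria1, the GluA1 subunit that is inserted during potentiation, read 12.04, 11.79 and 11.99 in vehicle and 12.08, 12.06 and 12.15 with CM-414. Gria2, whose edited subunit makes the channel impermeable to calcium, read 12.14, 12.02 and 12.09 in vehicle and 12.21, 12.17 and 12.19 with CM-414. For both genes the groups did not overlap, and the differences of 0.16 (SE 0.094) and 0.11 (SE 0.086) had adjusted p of 0.632 and 0.723 (limma). Gria3 read 11.22, 11.09 and 11.22 in vehicle and 11.45, 11.41 and 11.44 with CM-414. The CM-414 arrays of Gria3 were tightly grouped and above the vehicle arrays by 0.26 (SE 0.102, adjusted p = 0.490, limma). Gria4, which is abundant in interneurons, differed by 0.08 (SE 0.123) with overlapping groups.

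With CM-695 the AMPA genes overlapped vehicle throughout: Gria1 read 12.08, 12.14 and 11.92, and Gria2 12.19, 12.30 and 12.03. Gria3 read 11.38 and 11.44 on the first pair of CM-695 arrays and 11.04 on the last, the lowest value of Gria3 on any of the 12 arrays. With SAHA and tadalafil Gria1 read 11.78, 11.96 and 11.85 and Gria2 11.97, 12.09 and 12.12, again overlapping vehicle. The 4 differences from vehicle ranged from -0.06 (Gria4) to 0.11 (Gria3) with CM-695 and from -0.08 (Gria1) to 0.06 (Gria4) with SAHA and tadalafil.

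NMDA receptors are the calcium-permeable channels required for most hippocampal long-term potentiation. The main adult hippocampal subunits, Grin2a and Grin2b, overlapped vehicle in every treated group. Grin2a read 10.42, 10.07 and 10.42 in vehicle, 10.41, 10.38 and 10.38 with CM-414, 10.26, 10.51 and 10.24 with CM-695, and 10.21, 10.40 and 10.38 with SAHA and tadalafil. Grin2b read 11.27, 11.22 and 11.26 in vehicle, 11.19, 11.23 and 11.24 with CM-414, 11.26, 11.29 and 11.20 with CM-695, and 10.97, 11.28 and 11.30 with SAHA and tadalafil. Only the first of the SAHA and tadalafil arrays was apart for Grin2b. For the CM-695 comparison the difference of Grin2b was 0.00 with a 95% interval of -0.21 to 0.20, and that of Grin2a was 0.03 with an interval of -0.29 to 0.35.

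Grin2d, the slowest NMDA subunit, known from interneurons and from the diencephalon, read 7.74, 7.65 and 7.75 in vehicle. It read 7.46, 7.35 and 7.45 with CM-695 and 7.50, 7.58 and 7.36 with CM-414. Both treated groups lay wholly below vehicle. The difference with CM-695 was -0.29 (SE 0.092, 95% interval -0.51 to -0.08), with an adjusted p of 0.888, and that with CM-414 was -0.23 (SE 0.148, adjusted p = 0.657, limma), so neither was called. With SAHA and tadalafil Grin2d read 7.68, 7.95 and 7.23, spanning both the highest and the lowest of the 12 arrays. A second, dimmer probe set of Grin2d differed by -0.03 with CM-695, 0.09 with CM-414 and 0.11 with SAHA and tadalafil, so that its sign differed from the main probe set in the last pair of comparisons.

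Grin2c, an NMDA subunit also found in glia and thalamus, read 7.59, 7.51 and 7.53 in vehicle and 7.43, 7.44 and 7.40 with SAHA and tadalafil, without overlap. The difference was -0.12 (SE 0.075, adjusted p = 0.977, limma). With CM-414 it read 7.33, 7.52 and 7.34, and with CM-695 7.53, 7.54 and 7.53. Its second probe set, dimmer and more scattered, differed from vehicle by -0.63 with CM-695, -0.32 with CM-414 and 0.06 with SAHA and tadalafil. Grin3a, a subunit that lowers calcium entry, ranged from 7.93 to 8.40, and its differences from vehicle lay between -0.13 and 0.01.

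The kainate receptor genes (Grik1 to Grik5), whose channels modulate release and excitability and are prominent on mossy fibre synapses, gave no call. Their differences from vehicle were positive for 5 of 5 genes with CM-695, from 0.05 (Grik1, Grik5) to 0.16 (Grik3), and each 95% interval included 0. The corresponding counts were 4 of 5 with CM-414 and 3 of 5 with SAHA and tadalafil. Grik3 had the broadest spread, from 8.24 in vehicle replicate 1 to 9.0 in vehicle replicate 2, and both extremes of its 12 values were vehicle arrays.

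The metabotropic glutamate receptor genes had negative differences for 6 of 6 genes with CM-414, with a median of -0.20. With CM-695 4 of 6 were negative, with a median of -0.09, and with SAHA and tadalafil 4 of 6, with a median of -0.08. None of them was called. Grm7, a presynaptic receptor that reduces transmitter release, read 8.94, 8.86 and 8.86 in vehicle, 8.72, 8.68 and 8.40 with CM-414, 8.85, 8.77 and 8.49 with CM-695, and 8.62, 8.80 and 8.85 with SAHA and tadalafil. It was the only receptor gene with 1 group outside all the others. The 3 vehicle arrays exceeded all 9 treated arrays, as they did for 0.567% of the 21155 single-symbol probe sets over the minimum. Every group was searched in both directions, and that share covers vehicle above the rest only. The shares of the other cases ran from 0.269% (SAHA and tadalafil above) to 1.70% (CM-414 above). The 0.567% thus understates how often a pattern of the kind seen for Grm7 arises in such a search. The difference was -0.29 with CM-414 (SE 0.119, adjusted p = 0.503), -0.18 with CM-695 (SE 0.120, adjusted p = 0.992) and -0.13 with SAHA and tadalafil (SE 0.119, adjusted p = 0.996, limma). Single arrays carried much of these differences: without replicate 3 of each group they were -0.19 with CM-414 and -0.07 with CM-695, and without replicate 1 of SAHA and tadalafil the last was -0.06.

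A second probe set of Grm7, with a mean of 8.27 over the arrays, did not show that order. It read 8.31, 8.20 and 8.25 in vehicle, 8.41, 8.39 and 8.28 with CM-414, 8.41, 8.37 and 8.37 with SAHA and tadalafil, and 8.10, 8.10 and 8.0 with CM-695. Its CM-695 arrays were below the other 9, and it differed from vehicle by -0.18 with CM-695, 0.11 with CM-414 and 0.13 with SAHA and tadalafil. The probe sets of Grm7 thus had the same sign only with CM-695.

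Grm4, another presynaptic group III receptor, read 7.27, 7.24 and 7.18 in vehicle and 7.11, 6.90 and 6.95 with CM-414, without overlap. The difference was -0.24 (SE 0.112, adjusted p = 0.539, limma). With CM-695 Grm4 read 7.18, 7.02 and 7.11, all below vehicle although the nearest arrays were equal at the second decimal, and the difference was -0.13 (SE 0.094, adjusted p = 0.992). Grm5, the postsynaptic group I receptor coupled to Homer proteins, read 10.13, 10.07 and 10.08 in vehicle and 10.01, 10.07 and 10.04 with SAHA and tadalafil. These Grm5 groups touched at the second decimal without overlapping, with a difference of -0.06 (SE 0.087, adjusted p = 0.997). Grm2, a group II receptor prominent on dentate granule cell axons, read 9.68, 10.15 and 9.93 in vehicle and 9.98, 9.5 and 9.63 with SAHA and tadalafil, where its difference of -0.22 (SE 0.178, adjusted p = 0.996) was the most negative of the set. With CM-414 Grm2 read 9.91, 9.34 and 9.71 and with CM-695 9.95, 9.62 and 9.87, overlapping vehicle. Grm3 and Grm8, of groups II and III, overlapped vehicle in every comparison, with differences between -0.15 and 0.05.

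**Figure D3:**
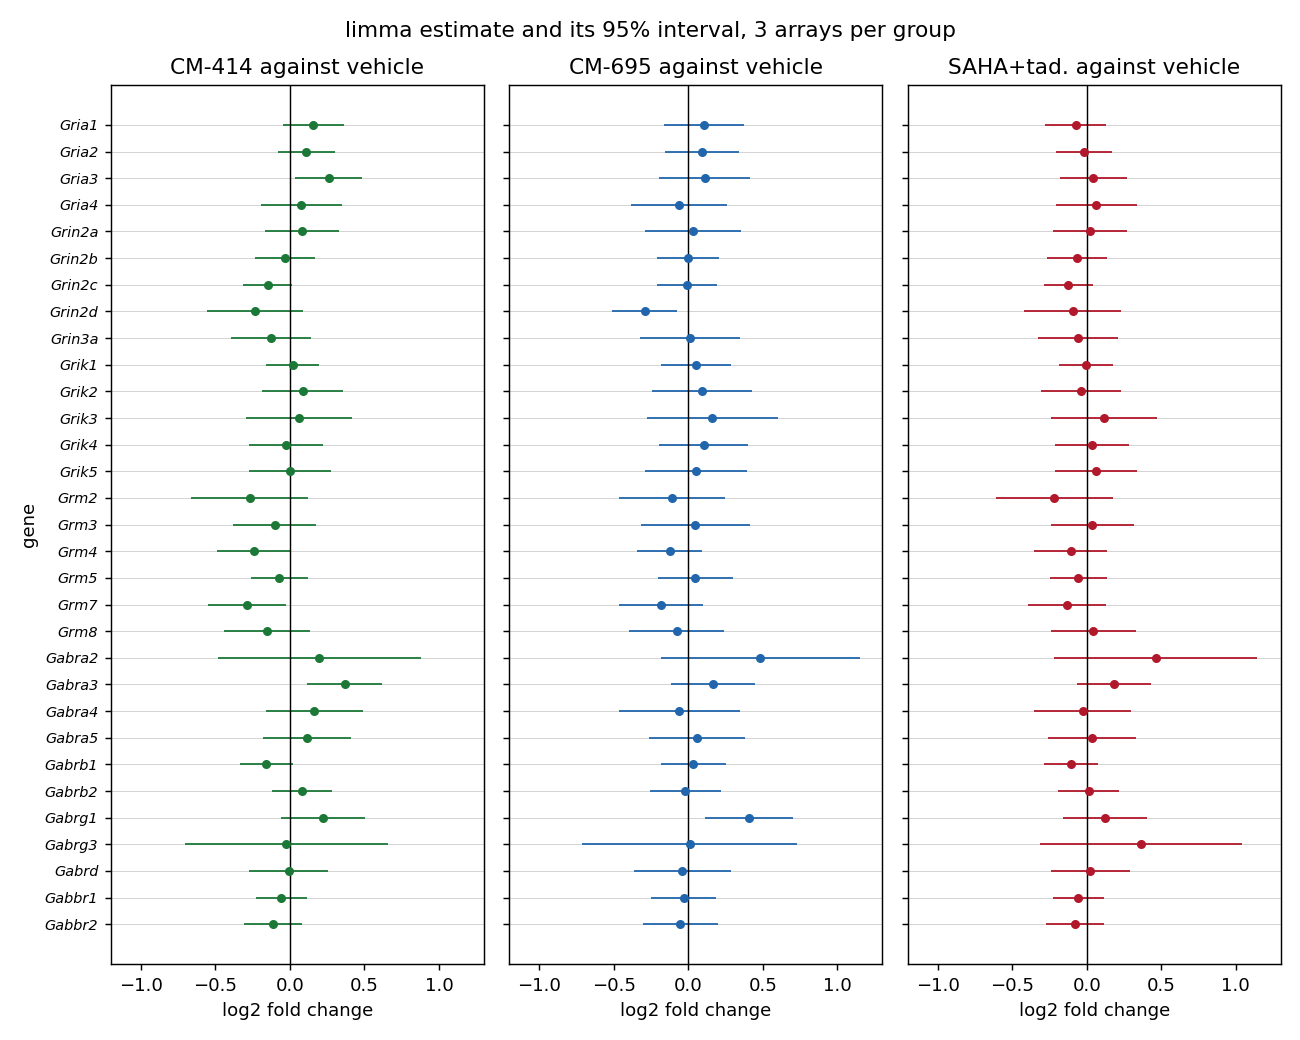
Points are limma estimates of the log2 fold change from vehicle for each receptor gene and lines their 95% intervals, in 1 panel per treatment, from 3 arrays per group. The interval excluded 0 for Gria3, Grm7 and Gabra3 with CM-414 and for Grin2d and Gabrg1 with CM-695, and for none with SAHA and tadalafil.

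Among the other GABA-A genes, Gabrb1, a beta subunit that contributes to the GABA binding site, read 10.13, 10.13 and 10.28 in vehicle and 9.94, 10.04 and 10.08 with CM-414. The groups did not overlap, and the difference was -0.16 (SE 0.082, adjusted p = 0.586, limma). Gabra5, the subunit of extrasynaptic receptors enriched in hippocampal pyramidal cells, read 11.35, 11.09 and 11.50 in vehicle, 11.44, 11.62 and 11.23 with CM-414, 11.51, 11.22 and 11.39 with CM-695, and 11.50, 11.29 and 11.26 with SAHA and tadalafil. Its groups overlapped in every comparison. Gabrd, which mediates tonic inhibition in dentate granule cells, read 7.37, 6.90 and 7.15 in vehicle, 7.21, 7.13 and 7.04 with CM-414, 7.05, 7.21 and 7.02 with CM-695, and 7.14, 7.30 and 7.04 with SAHA and tadalafil. The vehicle arrays of Gabrd held both the highest and the lowest value. Gabra4 and Gabrb2 had differences from vehicle between -0.06 and 0.16.

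Gabra2 and Gabrg3 had the largest differences in some comparisons and also the largest scatter. Gabra2, a synaptic alpha subunit, read 10.31, 10.14 and 11.31 in vehicle, 10.87, 10.21 and 11.27 with CM-414, 11.01, 11.08 and 11.12 with CM-695, and 10.72, 11.24 and 11.19 with SAHA and tadalafil. Values near 10.2 and values above 11 thus occurred in the same group. Its difference was 0.48 with CM-695 (SE 0.284, adjusted p = 0.992), 0.46 with SAHA and tadalafil (SE 0.310, adjusted p = 0.993) and 0.20 with CM-414 (SE 0.310, adjusted p = 0.887, limma). Without vehicle replicate 3, Gabra2 passed the unadjusted threshold with CM-695 (difference 0.84) and with SAHA and tadalafil (0.82), so that a single vehicle array decided it. Gabrg3 read 7.98, 7.42 and 8.54 in vehicle, 8.07, 8.41 and 7.39 with CM-414, 8.31, 7.55 and 8.11 with CM-695, and 8.19, 8.47 and 8.37 with SAHA and tadalafil. Its difference with SAHA and tadalafil was 0.36 (SE 0.309, adjusted p = 0.996).

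The SD within groups was 0.439 for Gabra2 and 0.437 for Gabrg3, more than in 99.3% of the single-symbol probe sets, whereas the median was 0.145 over the receptor genes and 0.135 over all such probe sets. Gabra2 lies between Gabrg1 and Gabra4 in a GABA-A gene cluster on chromosome 5 that also holds Gabrb1, and Gabrg3 lies beside Gabra5 on chromosome 7. The measured neighbours scattered less within groups, with an SD of 0.193 for Gabra4, 0.161 for Gabrg1, 0.0755 for Gabrb1 and 0.171 for Gabra5. On vehicle replicates 1, 2 and 3, where Gabra2 read 10.31, 10.14 and 11.31, Gabra4 read 10.43, 9.90 and 10.16.

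**Figure D4:**
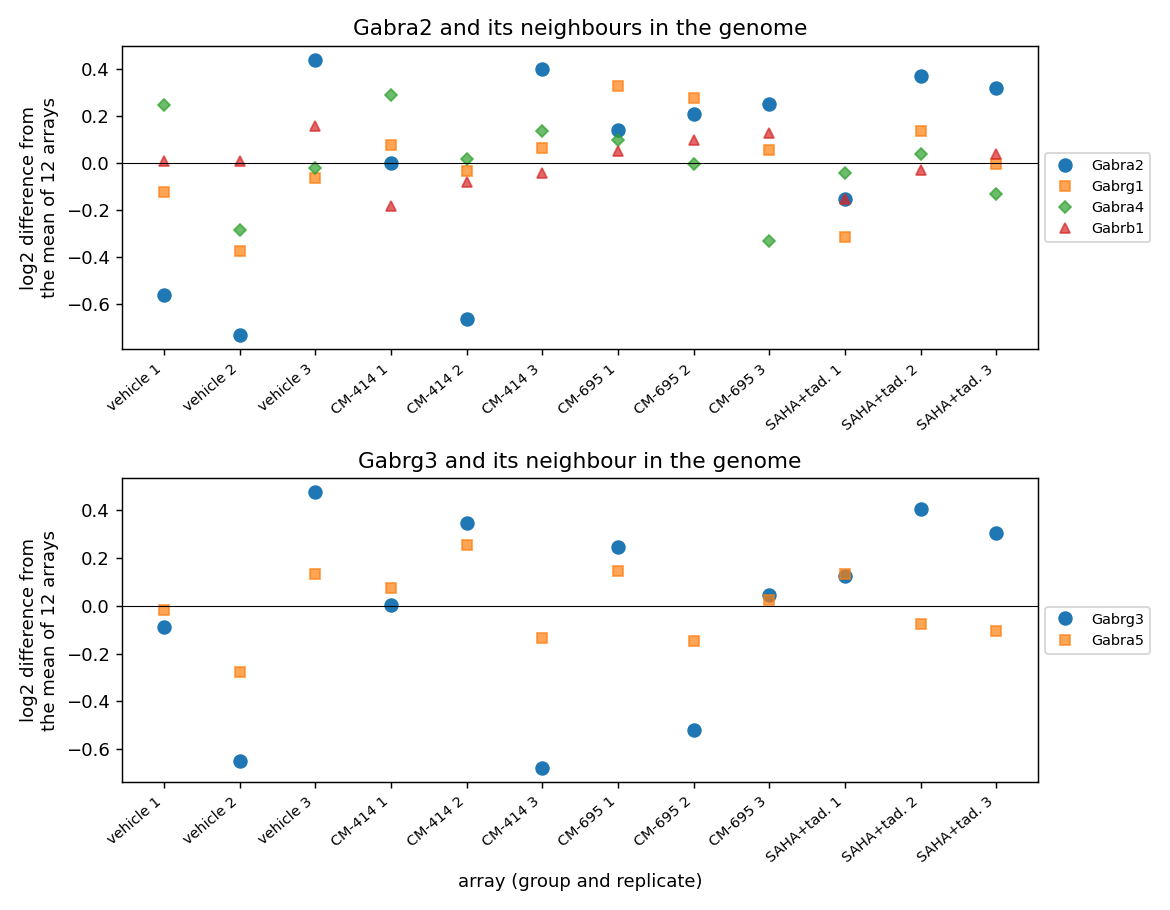
The log2 intensity of Gabra2 (upper panel) and Gabrg3 (lower panel) minus the mean of the 12 arrays is shown on each array beside that of the measured GABA-A genes next to it in the genome. Gabra2 spans 10.14 to 11.31 and Gabrg3 7.39 to 8.54, a wider range than any neighbour shown.

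The GABA-B receptor requires both of its subunits. Gabbr1 read 11.47, 11.46 and 11.51 in vehicle, 11.40, 11.38 and 11.48 with CM-414, 11.41, 11.40 and 11.54 with CM-695, and 11.45, 11.48 and 11.33 with SAHA and tadalafil. Gabbr2 read 11.23, 11.34 and 11.18 in vehicle, 11.18, 11.15 and 11.08 with CM-414, 11.10, 11.16 and 11.34 with CM-695, and 11.21, 11.23 and 11.07 with SAHA and tadalafil. Only Gabbr2 with CM-414 did not overlap vehicle, with touching groups and a difference of -0.12 (SE 0.089, adjusted p = 0.720, limma). The difference of Gabbr1 from vehicle had 95% intervals of -0.23 to 0.11 with CM-414 and -0.25 to 0.19 with CM-695.

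The genes whose treated arrays did not overlap vehicle were counted beside the same share of all probe sets. With CM-414, 5 receptor genes were wholly higher and 5 wholly lower, of 31, against 9.85% and 7.38% of all probe sets. With CM-695, 1 was higher and 3 lower, against 5.28% and 5.15%. With SAHA and tadalafil, 1 was higher and 3 lower, against 4.41% and 4.88%. The calls at an unadjusted p under 0.01 were 0 of 31 in both the CM-695 and the SAHA and tadalafil comparisons, beside 1.12% of all probe sets in each. The median difference of the 31 genes was 0.03 with CM-695, -0.01 with CM-414 and -0.01 with SAHA and tadalafil, and that of all single-symbol probe sets was 0.02, 0.01 and -0.01. The median half-width of a receptor gene's 95% interval was 0.30 with CM-695 and 0.26 with the other treatments, so smaller differences were mostly not detectable with 3 arrays per group.

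CM-695 and CM-414, inhibitors of different HDAC and phosphodiesterase combinations, were also compared with each other. No receptor gene was called, beside 1.11% of all 35326 probe sets tested, and 1 (Gabrb1) had an unadjusted p under 0.05, beside 5.72%. These counts use 1 probe set per gene. The second probe set of Grm7 passed the unadjusted threshold of 0.01, lower with CM-695 than with CM-414 by a log2 difference of -0.29 (SE 0.074, adjusted p = 0.709, limma), whereas the main probe set differed by 0.11, the opposite sign. This was noticed after the values were seen. Gabrb1 was higher with CM-695 (10.17, 10.22 and 10.25) than with CM-414 (9.94, 10.04 and 10.08), without overlap, by 0.19 (SE 0.082, 95% interval 0.01 to 0.37, adjusted p = 0.856, limma). Grin2c was the only other gene without overlap, of 2 higher and 0 lower, against 6.45% and 6.94% of all probe sets. Its difference was 0.14 (SE 0.075, 95% interval -0.03 to 0.30, adjusted p = 0.874), and it became -0.0852 when both probe sets were averaged. For Gabra3 the difference was -0.20 (95% interval -0.45 to 0.05) and for Gabrg1 0.19 (95% interval -0.10 to 0.47). Since the dose of CM-414 is not given, whether these were matched doses is unknown.

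Genes that work with the receptors gave few calls. Among 20 measured AMPA receptor auxiliary and trafficking genes, Cnih3, a cornichon protein that slows AMPA channel closing, rose with CM-414 from a mean of 9.81 to 10.20 (difference 0.39, SE 0.102, adjusted p = 0.384, limma). Cnih2, its close relative, was higher with CM-695 than with CM-414 by 0.25 (SE 0.076, adjusted p = 0.810). No other gene of that list was called in any of the 4 comparisons. The called share of all probe sets was 2.45% with CM-414 and 1.11% between CM-695 and CM-414. Of 22 excitatory scaffold genes and kainate or NMDA receptor partners, 18 inhibitory scaffold genes and GABA receptor partners, 17 genes of transmitter synthesis, vesicle loading and uptake and 15 other glutamate, GABA and glycine receptor genes tested, 0 were called in any comparison (limma). At an unadjusted p under 0.05, those 4 lists held 6 genes with CM-414, 2 with CM-695 and 1 with SAHA and tadalafil. These counts stand beside 9.35%, 5.09% and 5.23% of all probe sets tested.

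Some receptor genes separated sets of arrays that were not treatment groups. The second vehicle array, the third of CM-695 and the first of SAHA and tadalafil stood apart on the first principal component, which held 23.6% of the variance, with scores of at least 22.0 against at most 2.10 on the other 9 arrays. The component was computed over all probe sets over the minimum, the receptor genes included. On these 3 arrays Grik2 read 9.34 to 9.39, against 9.52 to 9.78 on the other 9. Grik5 read up to 10.11 there, with all 3 values above the 9.68 to 9.87 of the other 9. Gria2, Gria3 and Grin2a were also wholly lower on the 3 arrays and Grik3 wholly higher, making 4 lower and 2 higher, against 5.04% and 3.55% of single-symbol probe sets. These arrays are 1 each of 3 groups. Without them the Gabra3 difference with CM-414 was 0.41 and still called (limma), and those of Gria1 and Gria2 with CM-414 were 0.08 each. That of Gabrg1 with CM-414 was 0.13 and that of Grm7 with CM-695 was -0.09. That of Gabrg1 with CM-695 was 0.39 and called, in a fit that also held the other groups (limma). Such a fit called Gabrg1 with no array left out too. The call thus did not need the 3 arrays to be left out.

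The arrays also differed in the summed signal of a list of markers of the neighbouring thalamus and habenula. All 18 markers of that list were above the minimum on every array, and their summed linear signal was 6443 on vehicle replicate 1 and 6444 on SAHA and tadalafil replicate 2. It was 4551 on vehicle replicate 3 and 3267 on vehicle replicate 2, and lay between 3355 and 3764 on the other 8 arrays. The list was not uniform. On vehicle replicate 1 and SAHA and tadalafil replicate 2, Prkcd read 10 and 9.82, and Zic1 9.74 and 10.11, above the other arrays. Tac2, Nwd2, Gpr151, Pou4f1 and Chrnb4 were not raised there, and lay within or below the range of the other arrays. Grm4 (7.27 and 7.28) and Gabrd (7.37 and 7.30) were highest on the 2 arrays with the most marker signal, and no receptor gene was lowest there, against 1.91% of single-symbol probe sets wholly higher and 2.55% wholly lower. The highest values of Grin2d were on these arrays and on vehicle replicate 3. Against vehicle, 14 of the 18 markers had negative differences with CM-695 and 14 of 18 with CM-414, with medians of -0.25 and -0.26. Without these 2 arrays the difference of Grin2d with CM-695 was -0.28 and no longer passed an unadjusted p of 0.05. That of Gabra3 with CM-414 was 0.32 and no longer called (limma). That of Grm4 with CM-414 was -0.22 and did not pass 0.05, nor did it with all arrays. The part of thalamic tissue in these differences was not tested.

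**Figure D5:**
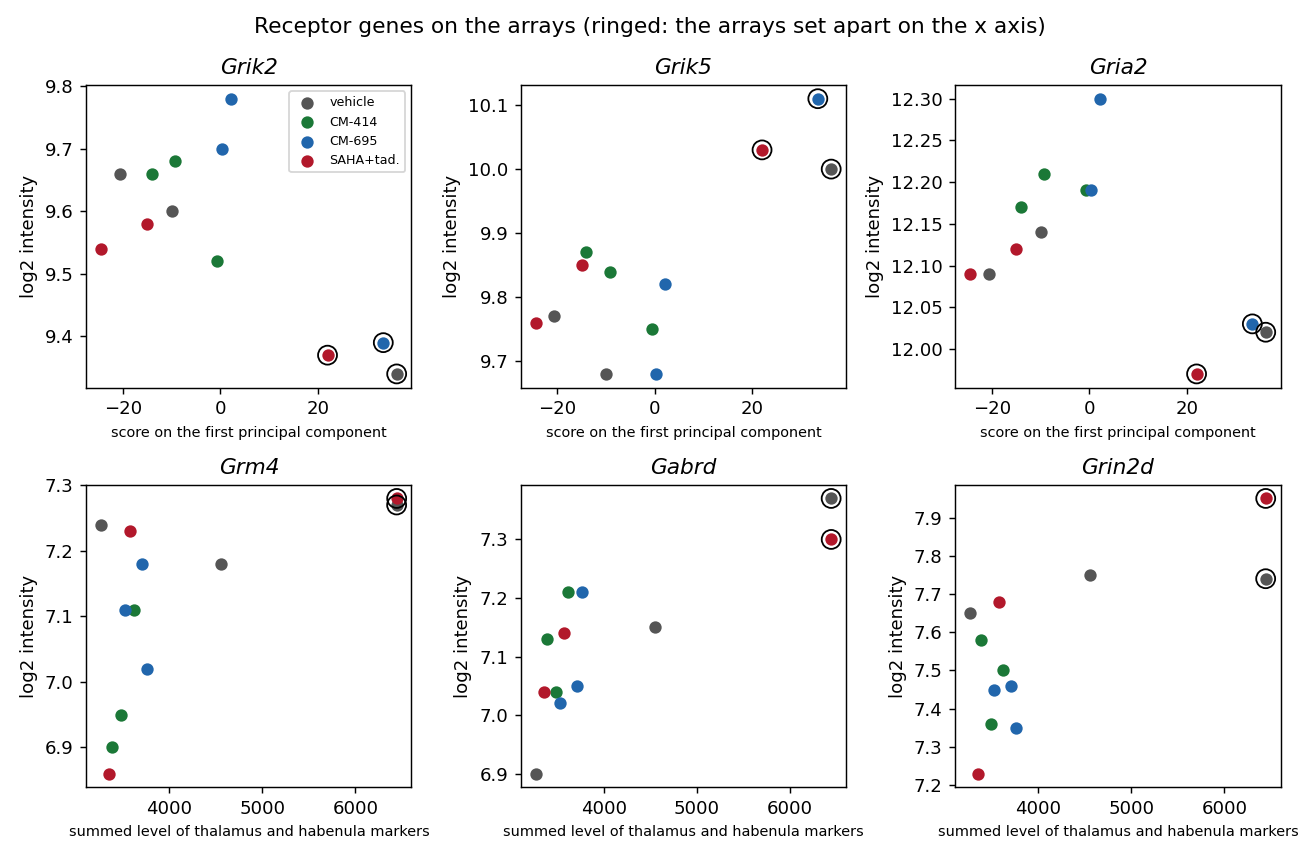
Each point is an array, coloured by group, with the log2 intensity of a receptor gene on the y axis. The upper panels set Grik2, Grik5 and Gria2 against the score on the first principal component, with the 3 arrays that stand apart ringed; the lower panels set Grm4, Gabrd and Grin2d against the summed linear signal of 18 thalamus and habenula markers, with the 2 highest arrays ringed.

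Markers of other cells and regions also differed between groups. In the CM-414 comparison 3 of 10 oligodendrocyte precursor markers and 2 of 11 oligodendrocyte markers were lower at an unadjusted p under 0.01 (limma). Of all probe sets, 2.45% passed that threshold in either direction. There, 11 of 11 microglial markers had negative differences. In the CM-695 comparison the precursor marker Olig2 was higher by 0.59 and the microglial marker C1qb had a difference of -0.74. Both were past 0.01, beside 1.12% of all probe sets, and 10 of 11 microglial markers were negative. Of the 10 precursor markers, 6 were positive and 4 negative with CM-695, with a median of 0.04. Summed microglial signal was 3289 to 4116 in vehicle, 2886 to 3231 with CM-414, 2728 to 3225 with CM-695 and 3046 to 3567 with SAHA and tadalafil. Of 9 choroid plexus markers, 8 had negative differences with CM-414 (median -0.33), 8 with CM-695 (median -0.16) and 0 with SAHA and tadalafil, none past 0.01, and their summed signal ran from 3408 to 16277 over the arrays. Of 9 striatal markers, 8 were positive with CM-695, and Tac1 passed 0.01 with a difference of 0.54. Of 12 astrocyte markers, 7 were positive and 5 negative with CM-414, where Gjb6 (0.47) and Sox9 (-0.36) passed 0.01. The endothelial marker Slco1a4 passed 0.01 with CM-414 (0.47) and with SAHA and tadalafil (0.43). Of the 12 endothelial markers, 9 were negative with CM-414 and 6 with SAHA and tadalafil. Summed signal of 14 interneuron markers was 10393 to 11206 in vehicle, 10928 to 11480 with CM-414, 11271 to 11880 with CM-695 and 9927 to 11174 with SAHA and tadalafil. Summed signal of 7 CA1 markers was 3059 to 3393 in vehicle and 3412 to 3483 with CM-414, without overlap. It was 3389 to 3767 with CM-695 and 3082 to 3131 with SAHA and tadalafil. Of 12 dentate granule markers, 9 had negative differences with CM-414, 7 with CM-695 and 10 with SAHA and tadalafil. Among them Lct differed by -0.66 with CM-414 (past 0.01). The summed signal of 16 general neuron markers overlapped, at 47731 to 49390 in vehicle and 47020 to 50682 with CM-414. It was 47022 to 50747 with CM-695 and 45210 to 48612 with SAHA and tadalafil. Within that list 8 of 16 markers had positive and 8 negative differences with CM-414, with a median of -0.004. Among them Tubb3 was lower with CM-414 (difference -0.45, past 0.01) and Nefm differed by -0.26 (past 0.05). With SAHA and tadalafil 15 of 16 markers had negative differences. The part of cell composition in the receptor values was not tested.

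The second probe set of Grin2b, dim at about 6, differed from the main one. It read 5.95, 6.05 and 6.20 in vehicle and from 5.75 to 5.92 on all 9 treated arrays. Vehicle exceeded all treated arrays in this way for 0.567% of the single-symbol probe sets over the minimum. The difference of this dim probe set from vehicle was -0.28 with CM-695 (adjusted p = 0.955) and -0.24 with CM-414 (adjusted p = 0.455). It was -0.22 with SAHA and tadalafil (adjusted p = 0.942, limma), so no difference passed an adjusted threshold. The bright probe set described above overlapped vehicle throughout. This pattern was noticed after the values were seen.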

How the data were processed

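Hippocampal RNA of 12 mice was hybridised to Affymetrix Mouse Gene 2.0 ST arrays, 300 ng of total RNA per sample. The deposited values are log2 intensities per probe set, background corrected and normalised by the authors with RMA, the only tool named in the submitters' processing notes. No source used here names the probe set build. Probes were named from the platform annotation (23521 probe sets with 1 symbol, 1820 with several, 16004 without a listed gene). Only probe sets with 1 symbol were used for named genes. Groups came from the sample titles, which call the 3 arrays per group biological replicates, and no array was left out of the main results. Arrays have no read depth, and their number limits the precision. RMA pulls probes of a probe set into 1 value, so isoform differences appear only between probe sets.

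limma 3.58.1 in R 4.3.3 was used (lmFit, eBayes, two-sided). Probe sets were kept where log2 values exceeded 4 on all arrays of both groups. CM-695 against vehicle was fitted on its 6 arrays, as in the methods, and the other comparisons on all 12. Calls used an unadjusted p under 0.01, and Benjamini-Hochberg adjusted p-values covered all probe sets tested. The script was tested on simulated data. Figures were drawn with matplotlib 3.10.9.

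Per-array values were given for receptor genes with p under 0.01, for the 2 largest positive and negative differences from vehicle in each comparison, for genes whose treated arrays did not overlap vehicle, and for Gria1, Gria2, Grin2a, Grin2b, Gabra5, Gabrd, Gabbr1 and Gabbr2. Members and lists were chosen with earlier results of these data known. Alternatives were other minimums, other sets of arrays, a replicate block, repeated quantile normalisation, median centring, an intensity trend, array weights, the mean of probe sets and leaving out each array. Leaving out the arrays that stand apart or those highest in thalamus markers was added after seeing the data.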

Additional observations from a re-analysis of the deposited data

How the results depend on the processing

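The median differences of the receptor genes stayed near 0 in every alternative run, from -0.01 to 0.05 with CM-695, from -0.04 to 0.03 with CM-414 and from -0.05 to 0.02 with SAHA and tadalafil. The count of called genes over the 4 groups and between CM-695 and CM-414 was 0 throughout.

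Counts against vehicle moved by 1 or 2 genes. With CM-695 the count was 1 (Gabrg1) in the fit on all 12 arrays, after repeated quantile normalisation and without the 3 arrays that stand apart, and 2 (Gabrg1 and Grin2d) with array weights. Leaving out 1 array gave 0 to 1: Gabra2 without vehicle replicate 3 and Gabrg1 without CM-695 replicate 3. With CM-414 the count was 0 in the fit on 6 arrays, after repeated quantile normalisation and without the 2 arrays highest in thalamus markers, and 0 to 1 on leaving out 1 array. With SAHA and tadalafil it was 0 to 1, the 1 being Gabra2 without vehicle replicate 3. Gabra3 with CM-414 was below p of 0.01 in 10 of 18 alternatives (limma), and its difference ranged from 0.26 to 0.44. Averaging probe sets turned Grin2c between CM-695 and CM-414 to -0.0852 and brought Grm7 to -0.09 with CM-414 and to -0.000636 with SAHA and tadalafil, Grin2d to -0.16 with CM-695 and -0.07 with CM-414, and Grin2c with SAHA and tadalafil to -0.03. The cause was not tested, beyond the averaging itself in the last cases.

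Replicate numbers did not pair the arrays: same-numbered deviations correlated at -0.35 to 0.12. With the replicate block, Gabra3 with CM-414 (0.37) just missed the threshold of 0.01, which left 0 called genes there. The block changed no other count of calls.

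With 3 arrays per group, a replicate that lies apart moves a call, and no receptor gene passed an adjusted threshold in the main analysis.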
